A study of Homo sapiens with 6 samples.

Results

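The genes described here encode the proteasome and the proteins that build and regulate it, measured by RNA-seq in DND41, a human T-cell acute lymphoblastic leukaemia line. They were chosen by name, as protein-coding symbols that begin with PSMA, PSMB, PSMC, PSMD, PSME, PSMF or PSMG and a digit and average 10 or more normalized counts across all libraries. Of 56 symbols with such a name among the 17202 genes of the deposited table, 48 were protein-coding and 47 met the level. PSMA8, a testis form of a core subunit, did not, at 0, 3.91 and 7.99 with MB1-47 and 11.0, 0 and 7.04 with DMSO. The other 8 were pseudogenes. One of the 47, PSMC3IP, encodes a recombination factor named for its interaction with PSMC3 and is no part of the proteasome, so class values below are over the other 46, of which PSMB8 had the lowest mean.

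The cells were kept for 24 h with MB1-47, described in the series title as a mitochondrial uncoupling drug, or with DMSO as the control, in 3 libraries each. The dose of MB1-47 in the labels is 4 mM, a unit repeated as written and not checked. All libraries come from the same cell line without genetic change named in the labels, in medium with serum. The cells were plated in triplicate per the labels, which do not say whether the triplicates were separate cultures on separate days. The p-values therefore set a group difference against the scatter of these 6 libraries within their groups. That scatter may be technical only.

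The proteasome is the main machine for degrading ubiquitin-tagged proteins in the cytosol and nucleus. Its barrel-shaped core particle is made of alpha rings (PSMA), which gate the entrance, around beta rings (PSMB), which hold the catalytic sites. A regulatory particle caps the barrel: its base contains the ATPases (PSMC) that unfold substrates, and its lid (most PSMD genes) contains the deubiquitinase PSMD14. Lymphoid cells can replace the standard catalytic subunits by immunoproteasome subunits (PSMB8, PSMB9, PSMB10), PSME1 to PSME4 encode alternative caps, and dedicated chaperones (PSMG1 to PSMG4, PSMD5, PSMD9, PSMD10, and POMP) assist assembly. In mammals the transcription factor NFE2L1 raises transcription of proteasome genes through antioxidant response elements when proteasome activity falls short.

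Proteasome transcripts were lower with MB1-47 in nearly every class of subunit. Of the 47 genes, 37 fell and 0 rose (limma, adjusted p below 0.05), against 19.8% of all 13465 tested genes called lower and 18.3% called higher (38.1% in either direction). These shares are 2667 genes lower and 2458 higher, and with libraries scaled to equal totals they became 2063 lower and 3335 higher, with 37 of the 47 genes again lower. At an unadjusted p below 0.05, 38 were lower and 0 higher. The median log2 fold change was -0.86, beside 0.02 over all tested genes, and 46 of the 47 changes were negative. The 37 that fell stood between 35.1% and 67.4% of their DMSO mean, with a median of 52.8%. A fall of at least 2-fold was called in 15 of the 47 genes, against 5.99% of all tested genes, and a rise of that size in 0, against 4.75%. The adjusted p of the 37 ran from 6.5e-07 to 0.0239. Among the 6514 tested genes with a mean between 646 and 8536, the range that holds the central part of the proteasome genes by level, 26.6% were called lower and the median change was 0.01.

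The calls are given next by class, over genes of the naming rule only. In the core particle 13 of 14 genes fell, in the regulatory particle 17 of 17, among the immunoproteasome subunits 2 of 3, among the activators and the inhibitor 3 of 5, and among the assembly chaperones 2 of 7. Over all tested genes 19.8% were called lower, and the count of the assembly chaperones is near that share. The class medians were -1.07 for the alpha ring, -0.95 for the beta ring, -0.90 for the ATPases of the base, -0.95 for the other base subunits, -0.89 for the lid, -0.80 for the immunoproteasome, -0.79 for activators and inhibitor, and -0.26 for the assembly chaperones. These medians describe the classes, and the differences between them were not tested. Over the 31 core and regulatory particle genes the changes ran from -1.51 to -0.57 with an SD of 0.26 across genes.

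**Figure D1:**
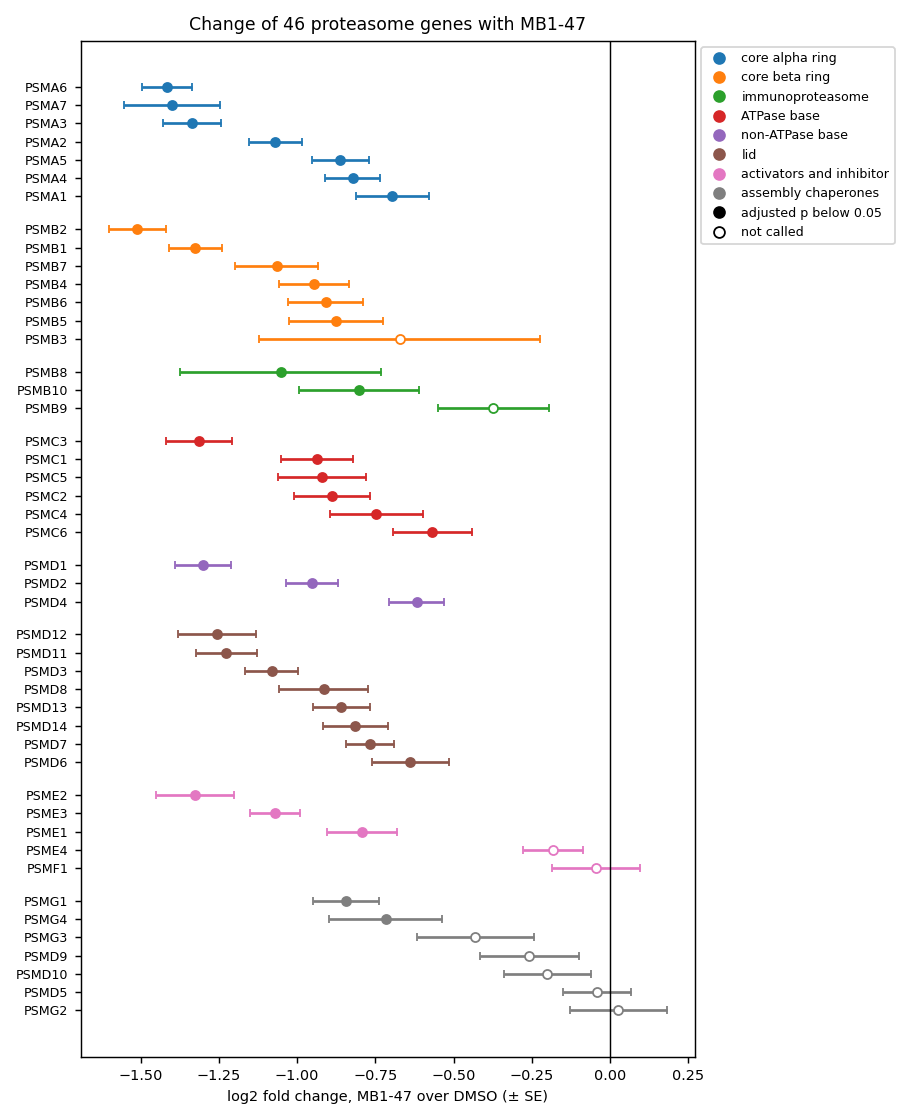
Log2 fold change of each of the 46 proteasome genes, MB1-47 over DMSO, with its standard error from limma (n = 3 each), grouped by class; filled points passed an adjusted p below 0.05. The 31 core and regulatory particle genes lie between -1.51 and -0.57, while 5 of 7 assembly chaperones have open points.

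As a share of all normalized counts, the 46 genes summed to 0.450%, 0.482% and 0.472% in the MB1-47 libraries, against 0.801%, 0.787% and 0.844% in the DMSO libraries. The core particle alone took 0.158% ± 0.00870 with MB1-47 and 0.316% ± 0.0119 with DMSO, and the regulatory particle 0.202% ± 0.00301 with MB1-47 and 0.348% ± 0.0138 with DMSO (SD, n = 3). The groups did not overlap in any of these sums. The values are relative, so less of a transcript per cell and more of other transcripts cannot be told apart, nor can fewer cells of a kind and less RNA per cell.

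**Figure D2:**
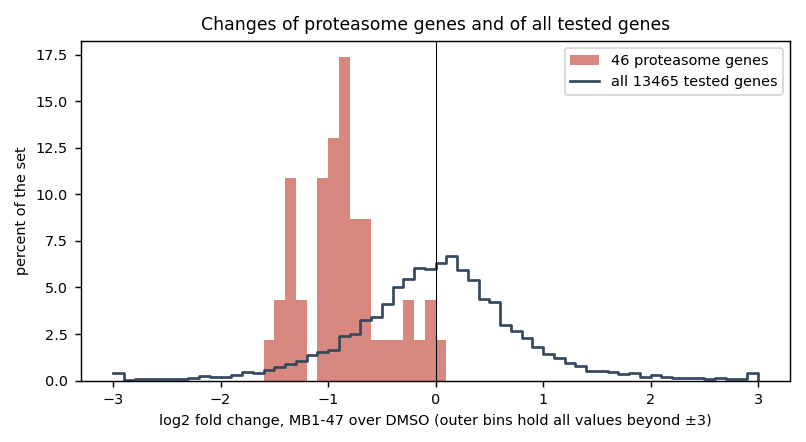
Percent of the 46 proteasome genes (bars) and of all 13465 tested genes (line) in bins of log2 fold change, MB1-47 over DMSO. The median of all genes is 0.02, and no proteasome gene lies above 0.03.

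The libraries held T-cell leukaemia transcripts. Of 12 T-lineage markers, 11 were in the table and all 11 averaged at least 10, among them CD3E, CD7 and TLX3. Their summed level was 29471 to 34128 with MB1-47 and 54491 to 57157 with DMSO. Of the B-lineage markers, CD79A, which some T-cell leukaemias express, had 6378, 7102 and 6996 with MB1-47 and 16560.0, 15937 and 17081 with DMSO, while PAX5 was between 11.4 and 23.1 with MB1-47 and between 11.5 and 15.2 with DMSO. Of 4 myeloid markers 2 were in the table and summed to at most 11.2 with MB1-47 and 22.9 with DMSO, with MPO and CSF1R not listed. Of 5 stromal and epithelial markers 2 were in the table, almost all of it PDGFRB, summing to 977 to 1195 with MB1-47 and 1426 to 1827 with DMSO. The part of these shifts in the proteasome result was not tested. The first principal component of all tested genes separated the groups, and DMSO replicate 1 stood apart from the other DMSO libraries on the second; without it 37 of the 47 proteasome genes were again called lower.

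Promoter sequences of a few members are shown because most members moved together and because NFE2L1 is known to act through antioxidant response elements. RefSeq promoter windows of 300 bases, 250 before and 50 after the start, were found for 40 of the 46 genes. The windows were searched on both strands for the antioxidant response element core TGACNNNGC, the E-box CACGTG, the CCAAT box CCAAT, the ETS core CCGGAAG and the palindromic core of the nuclear respiratory factor motif, and a match was counted for each motif even where it overlapped another. The 4 stretches below are the 250 bases before the start on GRCh38.p14, from genes with a clear fall (PSMD12, a lid subunit, and PSMA3, an alpha subunit) and from assembly chaperones that were not called (PSMD5 and PSMG2), picked with their values known. Capitals mark matches to the antioxidant response element core, the E-box or the CCAAT box on either strand.
PSMD12, chr17:67366578-67366827, minus strand: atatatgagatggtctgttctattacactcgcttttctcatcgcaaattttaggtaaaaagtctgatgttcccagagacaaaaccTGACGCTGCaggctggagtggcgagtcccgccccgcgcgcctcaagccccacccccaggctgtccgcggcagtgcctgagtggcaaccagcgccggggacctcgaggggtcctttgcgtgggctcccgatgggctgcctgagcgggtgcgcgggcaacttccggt
PSMA3, chr14:58244593-58244842, plus strand: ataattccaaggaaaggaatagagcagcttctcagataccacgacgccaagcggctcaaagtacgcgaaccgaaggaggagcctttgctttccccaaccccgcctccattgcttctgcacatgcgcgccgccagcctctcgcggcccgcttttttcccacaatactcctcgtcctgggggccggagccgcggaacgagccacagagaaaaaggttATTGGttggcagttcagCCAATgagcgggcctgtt
PSMD5, chr9:120842923-120843172, minus strand: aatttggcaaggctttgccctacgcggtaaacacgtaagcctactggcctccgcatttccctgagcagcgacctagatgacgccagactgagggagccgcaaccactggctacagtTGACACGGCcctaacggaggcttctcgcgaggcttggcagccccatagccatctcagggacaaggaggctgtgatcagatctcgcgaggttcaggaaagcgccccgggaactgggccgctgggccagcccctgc
PSMG2, chr18:12658488-12658737, plus strand: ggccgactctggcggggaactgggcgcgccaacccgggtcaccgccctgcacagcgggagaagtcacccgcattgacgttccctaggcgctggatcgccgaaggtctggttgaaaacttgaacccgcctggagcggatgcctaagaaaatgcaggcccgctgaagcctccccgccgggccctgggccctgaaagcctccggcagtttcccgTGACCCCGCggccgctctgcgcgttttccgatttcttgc

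The antioxidant response element core was found in 13 of the 40 windows (32.5%), against 14.9% of the windows of 9774 tested genes and 13.6% of all 27305 windows. Of the 32 windows of genes that fell, 7 held it, and of the 8 windows of genes that were not called, 6 did, those of PSMB3, PSMB9, PSMD5, PSMD9, PSME4 and PSMG2; the difference between these shares was not tested. The CCAAT box was found in 18 of 40 windows (45.0%; 37.0% of tested genes), the ETS core in 12 (30.0%; 19.9%), the E-box in 3 (7.50%; 10.1%) and the nuclear respiratory factor core in 1 (2.5%; 2.44%). A match is a string of letters in a window, not a shown binding site, and elements outside the window were not searched.

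All 7 alpha ring genes fell, and their groups did not overlap. Over all tested genes 19.8% were called lower, 25.2% were lower without overlap and 49.3% were without overlap in either direction. PSMA6, an alpha subunit on chromosome 14 from 35278633 to 35317493, had 7772, 7715 and 8296 normalized counts with MB1-47, against 22778, 19810 and 20884 with DMSO. Every MB1-47 library was below every DMSO library, and the change was -1.41 ± 0.08 (limma adjusted p = 6.5e-07), the largest fall in this ring and within its error of that of PSMA7. PSMA7 had 3125, 4921 and 3201 with MB1-47 and 9116, 9543 and 10418 with DMSO (-1.40 ± 0.15). In PSMA7, MB1-47 replicate 2 stood above its partners but below all DMSO libraries. PSMA3 fell by 1.34, PSMA2 by 1.07, PSMA5 by 0.86, PSMA4 by 0.82 and PSMA1 by 0.70 on the log2 scale.

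In the beta ring 6 of 7 genes fell. PSMB2, a structural beta subunit on chromosome 1 from 35599544 to 35641844, had 3155, 3069 and 3568 normalized counts with MB1-47 and 9116, 8812 and 9945 with DMSO. Its level with MB1-47 was 35.1% of that with DMSO (-1.51 ± 0.09, limma adjusted p = 8.6e-07), the lowest share of any of the 46 genes. PSMB1 fell by 1.33 and PSMB4 by 0.95 on the log2 scale. The remaining structural subunit, PSMB3, was read at 497, 1534 and 891 with MB1-47 and 1611, 690 and 2476 with DMSO. The groups of PSMB3 overlapped widely, with a coefficient of variation of 53.7% with MB1-47 and 56.1% with DMSO, the highest of the 46 genes in both groups (median 9.89% with MB1-47 and 8.33% with DMSO). Its change of -0.67 ± 0.45 was not called (limma adjusted p = 0.27). This value rests on single libraries: it was -1.18 and called without DMSO replicate 2 (limma adjusted p = 0.0434), -1.07 without MB1-47 replicate 2, and -0.26 without DMSO replicate 3 (limma adjusted p = 0.709) or without MB1-47 replicate 1 (limma adjusted p = 0.693).

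The 3 standard catalytic subunits fell. PSMB5, which carries the chymotrypsin-like site that bortezomib blocks, had 730.4, 631 and 822 normalized counts with MB1-47 and 1572, 1195 and 1247 with DMSO (-0.88 ± 0.15, limma adjusted p = 0.00090). PSMB6, with the caspase-like site, had 1787, 1712 and 1977 with MB1-47 and 3992, 3024 and 3316 with DMSO (-0.91 ± 0.12). PSMB7, with the trypsin-like site, had 1114, 1493 and 1101 with MB1-47 and 2518, 2423 and 2752 with DMSO (-1.06 ± 0.13). In none of the 3 did the groups overlap, where 25.2% of all tested genes were lower without overlap.

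Of their immunoproteasome counterparts, PSMB10 and PSMB8 fell and PSMB9 was not called. PSMB10, which takes the place of PSMB7, had 815, 1516 and 1065 with MB1-47 and 2051, 1732 and 1968 with DMSO (-0.80 ± 0.19, limma adjusted p = 0.0068). PSMB10 lost its call in limma without a trend (limma adjusted p = 0.0565). PSMB8, which takes the place of PSMB5, had 249, 129 and 106 with MB1-47 and 245, 331 and 378 with DMSO, so MB1-47 replicate 1 lay within the DMSO range. Its change of -1.05 ± 0.32 passed (limma adjusted p = 0.0239), but in 6 of 16 alternatives it did not. The limma adjusted p of PSMB8 then ranged up to 0.0993, and it missed the threshold without DMSO replicate 2 (0.0733), DMSO replicate 3 (0.0993), MB1-47 replicate 2 (0.0686) or MB1-47 replicate 3 (0.0900). PSMB9, which takes the place of PSMB6, had 350, 424 and 506 with MB1-47 and 554, 504 and 585 with DMSO (-0.37 ± 0.18, limma adjusted p = 0.123). PSMB8 and PSMB9 lie side by side on chromosome 6 and overlap, as PSMB9 does with TAP1 on the opposite strand; the strand setting of the counting is not given in the sources used here, so reads shared by these genes cannot be told apart.

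**Figure D3:**
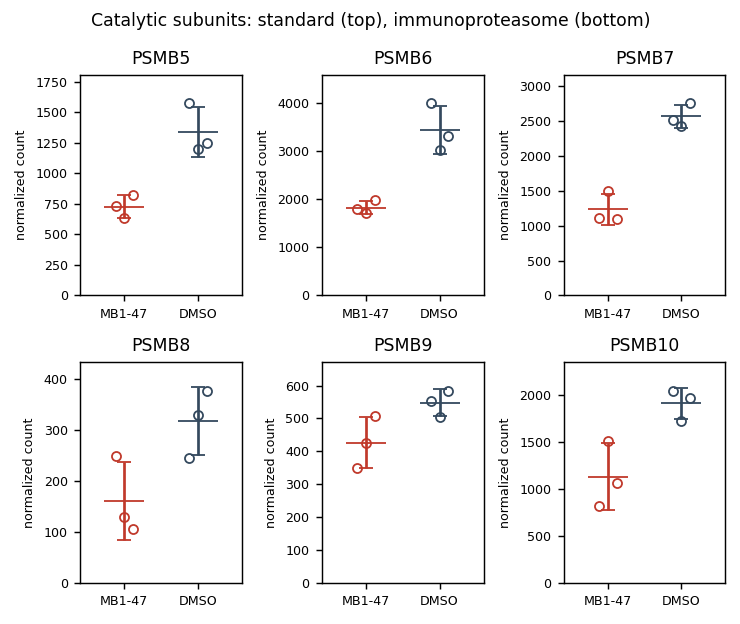
Normalized counts of the standard catalytic subunits (top) and the immunoproteasome subunit that replaces each (below it), per library (circles) with mean and SD (n = 3 each), MB1-47 left and DMSO right, axes from 0. The groups are apart in PSMB5, PSMB6, PSMB7 and PSMB10 and overlap in PSMB8 and PSMB9.

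Ratios within a library do not depend on how libraries were scaled. The value of PSMB9 as a percentage of that of PSMB6 was 19.6%, 24.8% and 25.6% with MB1-47 and 13.9%, 16.7% and 17.6% with DMSO. Every MB1-47 library was above every DMSO library, by 0.54 ± 0.16 on the log2 scale (exact two-sided permutation p = 0.1, the smallest that 3 against 3 allows; 0.3 adjusted over 3 ratios). PSMB10 over PSMB7 was 73.2%, 102% and 96.7% with MB1-47 and 81.5%, 71.5% and 71.5% with DMSO. These overlapped (0.26 ± 0.16, exact permutation p = 0.2, adjusted 0.3). PSMB8 over PSMB5 was 34.1%, 20.4% and 12.9% with MB1-47 and 15.6%, 27.7% and 30.3% with DMSO (-0.18 ± 0.50, exact permutation p = 0.8). No difference in the PSMB8 ratio was detectable against this spread. The ratios compare values of genes of different length, so their size says nothing of how many transcripts of each there were.

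All 6 ATPase genes of the base fell without overlap, where 19.8% of all tested genes were called lower and 25.2% were lower without overlap. PSMC3, an ATPase on chromosome 11 from 47418769 to 47426473, had 2616, 2481 and 3092 normalized counts with MB1-47 and 7289, 6233 and 6788 with DMSO (-1.31 ± 0.11, limma adjusted p = 4.6e-06). It was the ATPase with the largest fall. PSMC1, PSMC5, PSMC2, PSMC4 and PSMC6 changed by -0.94, -0.92, -0.89, -0.75 and -0.57. PSMC1 has a processed pseudogene, PSMC1P1, which was listed at 417, 388 and 608 with MB1-47 and 1023, 943 and 872 with DMSO. Whether reads were divided between these loci was not measured, so the value of PSMC1 is given as uncertain.

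The other base subunits, which form the scaffold and bind ubiquitin, fell as well. PSMD1 had 3447, 3457 and 3743 with MB1-47 and 9432, 7965 and 8892 with DMSO (-1.30 ± 0.09, limma adjusted p = 1.7e-06). PSMD2, a scaffold for shuttle factors, changed by -0.95 ± 0.08, and PSMD4, a ubiquitin receptor, by -0.62 ± 0.09. ADRM1, the further ubiquitin receptor of the base, lies outside the naming rule and had 3685, 3609 and 3601 with MB1-47 and 6858, 5946 and 7010 with DMSO (-0.86 ± 0.09).

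All 8 lid genes of the naming rule fell, with no overlap between the groups. Over all tested genes 19.8% were called lower and 25.2% were lower without overlap. PSMD12, on chromosome 17 from 67337916 to 67366627, had 1609, 1478 and 1564 normalized counts with MB1-47 and 3107, 3761 and 4350 with DMSO (-1.26 ± 0.12, limma adjusted p = 2.0e-05). PSMD14, the deubiquitinase that removes ubiquitin chains before a substrate is unfolded, had 3859, 3446 and 3886 with MB1-47 and 7349, 5809 and 6571 with DMSO (-0.81 ± 0.10). PSMD11, reported as limiting for assembly in human stem cells, had 4117, 4729 and 4281 with MB1-47 and 9054, 10606 and 11102 with DMSO (-1.23 ± 0.10). PSMD3 fell by 1.08, PSMD8 by 0.92, PSMD13 by 0.86, PSMD7 by 0.77 and PSMD6 by 0.64 on the log2 scale. SEM1, a further lid subunit outside the naming rule, had 628, 493 and 454 with MB1-47 and 1054, 632 and 555 with DMSO. Its groups overlapped and it was not called (-0.46 ± 0.23, limma adjusted p = 0.144).

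**Figure D4:**
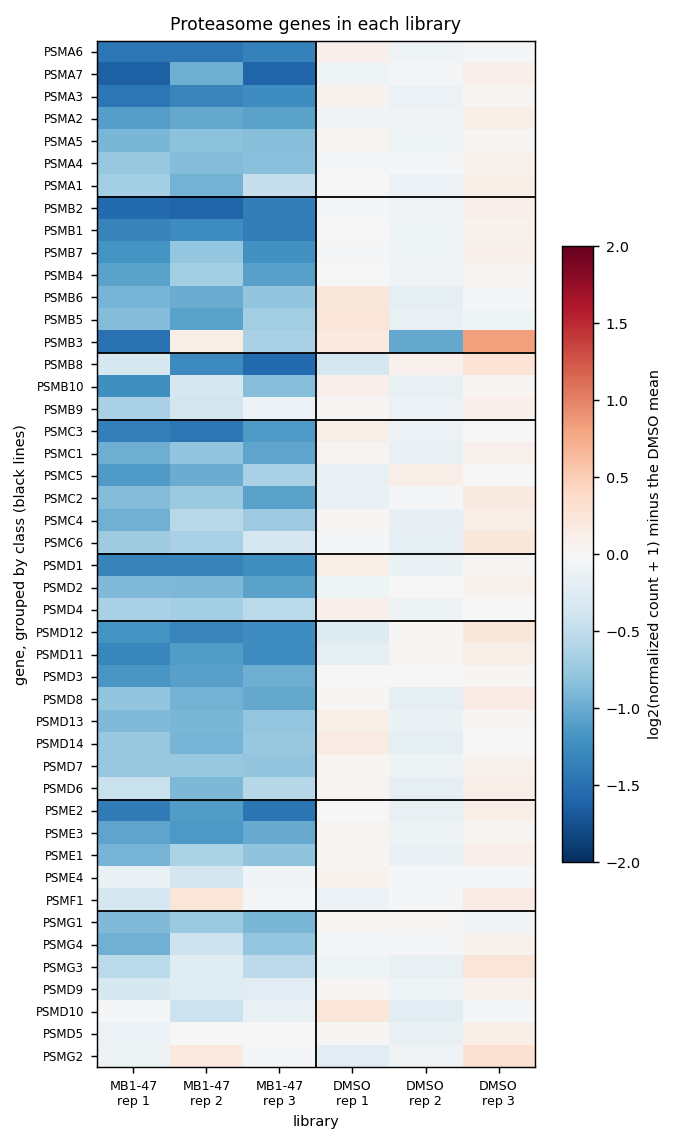
Log2(normalized count + 1) of each of the 46 genes in each library minus its DMSO mean, MB1-47 libraries left and DMSO libraries right, with black lines between classes and rows ordered by change within a class. The MB1-47 columns are blue in the core and regulatory particle and pale in the lower rows of the activators and chaperones; PSMB3 varies within both groups.

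The caps divided into those that fell and those that did not. PSME2, which forms a ring cap with PSME1, had 1096, 1335 and 1047 with MB1-47 and 2912, 2606 and 3185 with DMSO (-1.33 ± 0.13, limma adjusted p = 1.5e-05). PSME1 itself had 1575, 1939 and 1723 with MB1-47 and 3075, 2754 and 3225 with DMSO (-0.79 ± 0.11). Both are interferon-inducible, while PSME3 forms a nuclear cap. PSME3 had 7977, 7507 and 8261 with MB1-47 and 17272, 15390 and 17214 with DMSO (-1.07 ± 0.08). PSME4, a single-chain nuclear cap, had 7181, 6114 and 7593 with MB1-47 and 8284, 7700 and 7635 with DMSO. Its groups lay just apart, the change was -0.18 ± 0.09 and it was not called (limma adjusted p = 0.157), except after removal of the trends on GC content and length (-0.37, limma adjusted p = 0.0030). PSMF1, a proteasome inhibitor in vitro, had 3592, 5415 and 4502 with MB1-47 and 4233, 4441 and 5114 with DMSO (-0.04 ± 0.14, limma adjusted p = 0.829). The DMSO libraries of PSMF1 lay inside the MB1-47 range.

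Among the assembly chaperones 2 of 7 fell, the core chaperones PSMG1 and PSMG4, a count near the 19.8% of all tested genes called lower. PSMG1, on chromosome 21 from 39174769 to 39183851, had 1090.1, 1199 and 1062 with MB1-47 and 2052, 2027 and 1936 with DMSO (-0.84 ± 0.11, limma adjusted p = 1.0e-04). PSMG2, its direct partner in a heterodimer, had 1012, 1248 and 1070.0 with MB1-47 and 925, 1036 and 1335 with DMSO (0.03 ± 0.15, limma adjusted p = 0.911). The groups of PSMG1 were apart and those of PSMG2 lay on top of each other. PSMG4 changed by -0.72 ± 0.18 (limma adjusted p = 0.0088), and its partner PSMG3 stood at 318 ± 39.0 with MB1-47 and 431 ± 65.7 with DMSO (-0.43 ± 0.19, adjusted p = 0.0946). None of the 3 base chaperones was called. PSMD10, known as gankyrin and overexpressed in liver cancer, had 2369, 1790.1 and 2180.1 with MB1-47 and 2841, 2093 and 2363 with DMSO (-0.20 ± 0.14, limma adjusted p = 0.286). PSMD5 changed by -0.04 ± 0.11 and PSMD9 by -0.26 ± 0.16. POMP, the core maturation factor outside the naming rule, had 1509, 1457 and 1551 with MB1-47 and 3749, 3370 and 3741 with DMSO (-1.26 ± 0.10, limma adjusted p = 3.1e-06).

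PSMC3IP, chosen by the name rule but not a proteasome gene, had 155, 161 and 173 with MB1-47 and 206, 170.1 and 214 with DMSO (-0.26 ± 0.23, limma adjusted p = 0.398).

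Without overlap between the groups and lower with MB1-47 were 39 of the 47 genes, against 25.2% of all tested genes in that direction and 49.3% in either. Within the groups, DMSO replicate 2 was the lowest DMSO library in 32 of the 46 proteasome genes and DMSO replicate 3 the highest in 30. The median deviation from the mean of the other DMSO libraries was -0.16 for DMSO replicate 2 and 0.12 for DMSO replicate 3, beside -0.03 and 0.02 over all tested genes. Among the MB1-47 libraries replicate 1 was lowest in 20 genes, replicate 2 in 15 and replicate 3 in 11. The classes varied least between MB1-47 libraries in the non-ATPase base (SD of the mean log2 level 0.01) and most in the beta ring (0.16). The first of these classes has only 3 genes, and the second includes PSMB3, with a coefficient of variation of 53.7% with MB1-47. With each of the 6 libraries left out in turn, 36 or 37 of the 47 genes were called lower and 0 higher.

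The 46 genes lie on 17 chromosomes, with 7 each on chromosomes 14 and 17. Their annotated transcripts were shorter than those of tested genes in general, with a median of 1566 bp against 2990 bp, and of similar GC content, with medians of 50.3% and 48.3%. After the trends on length and GC content were removed from each library, 37 were still called lower and the median change was -0.75. Across the 46 genes, the Spearman correlation of the change with transcript length was 0.13, with GC content -0.02 and with mean level -0.32. Over the tested genes in general the same correlations were 0.15, -0.14 and -0.08. All are descriptions across genes of the same 6 libraries. A total of 20 members overlap another protein-coding gene in GENCODE 29, 16 of them one on the opposite strand and 5 one on the same strand. The 5 are PSMA6, PSMA2, PSMA1, PSMB10 and PSMD9, and PSMA6 overlaps AL121594.1 over 38842 bases. Whether reads were divided between such loci was not measured.

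Proteasome subunits and cofactors outside the naming rule were counted next. Of 15 listed genes 14 were tested, and 6 fell, 2 rose and 6 were not called (median -0.30), beside 19.8% lower and 18.3% higher over all tested genes; the count that rose is no larger than that share. Beside POMP and ADRM1, UCHL5, a deubiquitinase bound to ADRM1, had 2461, 2414 and 1993 with MB1-47 and 4565, 4057 and 3953 with DMSO (-0.88 ± 0.11, limma adjusted p = 1.0e-04). USP14, the deubiquitinase bound to the base, changed by -0.76 ± 0.11, UBE3C, a ligase that extends chains at the proteasome, by -0.46 ± 0.10, and MIDN, which carries nuclear proteins to the proteasome without ubiquitin, by -0.38 ± 0.10. The genes that rose were UBLCP1 (0.45 ± 0.10), a phosphatase that acts on nuclear proteasomes, and AKIRIN2 (0.40 ± 0.12), which is needed to import proteasomes into the nucleus. ECPAS, which encodes a proteasome adaptor, was listed at 4.29, 5.95 and 1.17 with MB1-47 and 6.43, 6.97 and 1.01 with DMSO and was too low to test. USP14, UBE3C, MIDN, UBLCP1 and AKIRIN2 were named after their values were seen.

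NFE2L1, the activator of proteasome genes, was itself higher. It lies on chromosome 17 from 48048329 to 48061487 and had 5539, 6043 and 5462 normalized counts with MB1-47, against 2806, 3245 and 3559 with DMSO. The groups were apart, and the change was 0.83 ± 0.10 (limma adjusted p = 9.5e-05). NFE2L1 protein is made in the endoplasmic reticulum, retrotranslocated, stripped of its sugars and cut before it enters the nucleus. The list of 11 genes holds NFE2L1, genes of these steps, small MAF partners and genes of its turnover. Of the 11, 4 rose, 2 fell and 5 were not called (median 0.14). Over all tested genes 18.3% rose and 19.8% fell, so the count that fell is near that of the whole table. SEL1L and SYVN1, partners in the ubiquitin ligase that retrotranslocates and degrades NFE2L1, rose: SEL1L had 26367, 22377 and 24437 with MB1-47 and 7035, 7484 and 6794 with DMSO (1.78 ± 0.08). SYVN1 had 2908, 2958 and 2872 with MB1-47 and 1433, 1431 and 1335 with DMSO (1.06 ± 0.09). NGLY1, which removes the sugars, changed by 0.61 ± 0.11. DDI2, the protease that cuts NFE2L1, had 7086, 5951 and 7172 with MB1-47 and 7711, 7046 and 6283 with DMSO (-0.06 ± 0.10, limma adjusted p = 0.7). The genes that fell were VCP, the ATPase that extracts proteins from the membrane (-0.79 ± 0.12), and MAFK, a small MAF partner (-0.72 ± 0.16). NGLY1, VCP and MAFK were named after their values were seen. Only RNA was measured, so the amount and cutting of NFE2L1 protein are unknown.

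**Figure D5:**
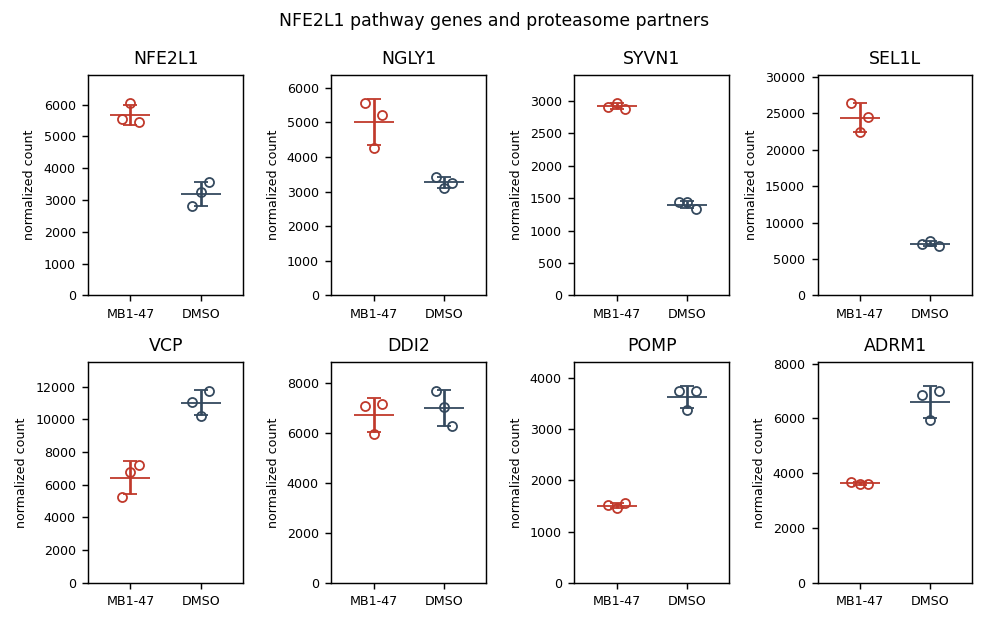
Normalized counts per library (circles) with mean and SD (n = 3 each) for NFE2L1, genes of its processing, and the proteasome partners POMP and ADRM1, MB1-47 left and DMSO right, axes from 0. NFE2L1, NGLY1, SYVN1 and SEL1L are higher with MB1-47, VCP, POMP and ADRM1 lower, and DDI2 overlaps.

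Genes that mark substrates and bring them to the proteasome were lower or not called. Of 16 genes for ubiquitin, its activating enzymes and shuttle factors, 9 fell and 0 rose in limma (10 lower and 0 higher at an unadjusted p below 0.05; median -0.39), against 19.8% lower and 18.3% higher over all tested genes, and none of these falls reached 2-fold. UFD1, a cofactor of VCP, had 2310, 2407 and 2122 with MB1-47 and 4485, 3706 and 4361 with DMSO (-0.87 ± 0.10). RAD23B, a shuttle that docks at the proteasome, had 3577, 3579 and 3808 with MB1-47 and 6283, 5619 and 5937 with DMSO (-0.70 ± 0.08). In both genes all MB1-47 libraries were lower than all DMSO libraries.

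Among 11 genes that take peptides from the proteasome to MHC class I or control this supply, the median change was 0.16, and 1 gene, IRF1, fell. IRF1, an activator of immunoproteasome genes, had 7768, 6366 and 7348 with MB1-47 and 10734, 10087 and 10403 with DMSO (-0.54 ± 0.09). TAP1, the peptide transporter gene beside PSMB9, had 778, 1109 and 937 with MB1-47 and 890, 775 and 688 with DMSO (0.26 ± 0.16, limma adjusted p = 0.243). TAP2, its partner, had 957, 529 and 931 with MB1-47 and 643, 769 and 1268 with DMSO (-0.14 ± 0.27, limma adjusted p = 0.731).

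The lid has 2 relatives built from related subunits, the COP9 signalosome, which removes NEDD8 from cullin ligases, and the translation factor eIF3. All 8 lid genes of the naming rule fell with a median of -0.89, and SEM1, outside that rule, was not called. Of 10 COP9 genes 4 fell and 0 rose (5 lower and 0 higher at an unadjusted limma p below 0.05, median -0.23). Among 8 eIF3 genes 2 fell and 3 rose (median -0.05). Over all tested genes 19.8% were lower and 18.3% higher, and the eIF3 count that fell is near that share. COPS6 had 725, 1003 and 785 with MB1-47 and 1576, 1475 and 1606 with DMSO (-0.90 ± 0.14), and COPS7B had 1608, 1553 and 1698 with MB1-47 and 2093, 2541 and 2603 with DMSO (-0.57 ± 0.11). COPS9 changed by -1.12 ± 0.36 (limma adjusted p = 0.0292, range 0.0143 to 0.0821) and missed the threshold in 7 of 16 alternatives. Leaving out any DMSO library ended the call, as did leaving out MB1-47 replicate 3, which also brought the change to -0.70. COPS9 had 109, 134 and 50.7 with MB1-47 and 215, 189.7 and 189.8 with DMSO, MB1-47 replicate 3 being the lowest. The eIF3 genes with the largest called changes were EIF3L, EIF3F and EIF3C. EIF3L had 13482, 15388 and 13198 with MB1-47 and 7839, 8049 and 8738 with DMSO (0.77 ± 0.09). EIF3F had 3084, 2935 and 3178 with MB1-47 and 1992, 1631 and 2072.5 with DMSO (0.70 ± 0.11). EIF3C had 9339, 9337 and 9598 with MB1-47 and 12582, 12648 and 13709 with DMSO (-0.46 ± 0.07), so it was lower where EIF3L and EIF3F were higher. These values stand beside those of the lid as a description, and the difference between the complexes was not tested.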

How the data were processed

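Strand-specific RNA-seq libraries of total RNA from DND41 cells were analysed, 3 with MB1-47 and 3 with DMSO. The deposited values are normalized counts, a signal that is never negative; kallisto 0.44.0 and DESeq were used with GRCh38.p13, per the submitters' processing notes. Which annotation was used, and how transcripts were summed to genes, the sources used here do not give. Tested for steps worth 1 read, at most 64.3% of a library's low values came out whole (tolerance 0.1), so reads were not recovered, depth is unknown, and no counting interval is given. Summed values ran from 28323706 to 32667526 and are not depths.

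Values were taken as log2(value + 1), a scale on which fold changes of low genes are understated. limma 3.58.1 (R 4.3.3) fitted MB1-47 minus DMSO with an intensity trend over the 13465 genes that average 10 or more, with Benjamini-Hochberg adjustment and a threshold of 0.05. Errors beside changes are SE, and those beside levels are SD. The fit was tested on simulated data in which 200 genes were changed. It recovered 35.7% of 1.5-fold, 60.3% of 2-fold and 71.6% of 4-fold changes, and 4.31% of its calls were false. At a mean of at least 100 it recovered 44.6%, 71.7% and 100%. Far more genes were called in the real data, so these shares do not carry over directly. A gene not called may still have changed.

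Members, classes and lists were chosen with earlier results of these data known. Values in every library are given for the largest called change of each class, for up to 3 called genes of each list, and for genes set by name; a few of these and some markers are not reported here. Positions are from GENCODE 29 (GRCh38) and promoters from RefSeq. The alternatives are given in the closing section. Figures used matplotlib 3.10.9.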

Additional observations from a re-analysis of the deposited data

How the results depend on the processing

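Of the 47 genes, 40 kept both direction and call in all 16 alternatives: pseudocounts of 0.5 and 5, no filter and a filter at 50, TMM factors, equal totals, quantile scaling, removal of GC and length trends, limma without a trend, the replicate block, and each library left out. The count of genes called lower was 35 to 37 of 47 in all of them, and 0 were called higher. PSMB8, PSMB10, PSMB3 and PSME4 changed call as given above. The median change of -0.86 became -0.73 with equal library totals, which moved the median of all genes from 0.02 to 0.15 and the whole-table calls from 2458 higher and 2667 lower to 3335 and 2063, and -0.75 with GC and length trends removed; leaving out 1 library gave -0.91 to -0.83, 1950 to 2320 genes higher and 2127 to 2491 lower. Small changes turned sign. Under equal totals PSMD5 was 0.087, PSMF1 0.084 and DDI2 0.070, and DDI2 was 0.013 with quantile scaling; with GC and length trends removed DDI2 was called lower. With 1 library left out PSMD5 ran from -0.12 to 0.023, PSMF1 from -0.19 to 0.11, PSMG2 from -0.089 to 0.18, DDI2 from -0.13 to 0.029, TAP2 from -0.34 to 0.15 and the PSMB8 to PSMB5 log2 ratio from -0.53 to 0.16. That of PSMB9 to PSMB6 ran from 0.43 to 0.66 and that of PSMB10 to PSMB7 from 0.17 to 0.41. The causes were not tested. Whether the replicate numbers pair the libraries is not settled by the values. Deviations of same-numbered libraries correlated at 0.02, 0.06 and 0.01, and 2 of 3 MB1-47 and 1 of 3 DMSO libraries correlated best with their own number. With 3 libraries in each group such correlations cannot exclude a pairing. With the replicate block 37 of 47 genes were lower, as were 2715 genes in all, and 2531 were higher. Without read counts, counting error cannot be separated from other spread, which limits low genes such as PSMB8 and COPS9 most.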
